A study of Mus musculus with 6 samples.

Results

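The genes described here encode the MHC class II molecules of the mouse, their peptide-loading helpers and the invariant chain. The 10 genes asked for were H2-Aa, H2-Ab1, H2-Eb1, H2-Ea, H2-DMa, H2-DMb1, H2-DMb2, H2-Oa, H2-Ob and Cd74, and every probe set whose platform annotation gives 1 of these symbols and no other was taken. This gave 19 probe sets for 9 genes, out of 45037 probe sets on the array that are not controls. H2-DMb1 had 0 probe sets of its own. Another 3 probe sets list a member beside another symbol and are described apart. The platform symbols were all found unchanged in the RefSeq annotation through their Entrez identifiers.

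MHC class II molecules are heterodimers of an alpha and a beta chain that present peptides from the endosomal pathway to CD4+ T cells. In the mouse, H2-Aa and H2-Ab1 encode the alpha and beta chains of I-A, and H2-Ea and H2-Eb1 those of I-E. The invariant chain, encoded by Cd74, chaperones new class II dimers and blocks their groove, the DM heterodimer exchanges its remnant for other peptides, and the DO heterodimer inhibits DM. B cells, dendritic cells and macrophages carry class II constitutively, and intestinal epithelial cells can be induced to do so by interferon gamma. In the H2b haplotype, which C57BL/6 mice carry, H2-Ea is not expressed, and the RefSeq annotation of the C57BL/6J genome lists it as a transcribed pseudogene.

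Colon RNA of 3 control mice was compared with that of 3 mice labelled HDAC2 KO, with 1 numbered mouse and 1 array per sample. The KO mice carried floxed Hdac2 alleles, which were deleted by Cre under the villin promoter, active in intestinal epithelial cells. Leukocytes are not a target of that promoter. Both groups were untreated, on a normal diet and of a mixed CD-1/129/C57BL/6 background. Age, sex, H2 haplotype and the floxed or Cre status of the controls were not given in the sources used here. The description label of the KO samples names HDAC1/2, while title and genotype name HDAC2 alone. The source label names epithelium and the extraction protocol names colon. The epithelial gene Epcam read 13.93 on average in control, and the smooth muscle gene Myh11 read 12.76, so RNA of both tissues was present. Values are log2 signals made with RMA by the authors. Hdac2 itself, on its brightest probe set, read 10.40 ± 0.031 (SD, n = 3) in control against 10.19 ± 0.058 in the KO group, a difference of -0.21 (SE 0.051) that was not called over all probe sets (adjusted p = 0.0768). The 2 further Hdac2 probe sets differed by -0.22 and -0.078 and were not called. The position of their probes within the gene, inside or outside the deleted exons, was not analysed here.

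Most class II probe sets, but not all, read lower in HDAC2 KO than in control colon. The difference was negative for 16 of 19 member probe sets, against 21739 of all 45037 probe sets. Probe sets of H2-Ea, Cd74, H2-Aa and H2-Ab1 fell 1.27- to 1.56-fold, while H2-Eb1 read higher without passing the test, and H2-DMb2 had probe sets in both directions. Each probe set was tested with limma over the whole array and called at an adjusted p under 0.05. Of the 19 member probe sets, 6 were called lower, against 2.08% of all probe sets, and 2 were called higher, against 1.72% of all probe sets. The other 11 were not called. The groups did not overlap for 10 member probe sets that were lower and for 3 that were higher, against 11.3% and 11.9% of all probe sets. The median difference of the members was -0.15 on the log2 scale, against 0.0041 over all probe sets. The counts rest on single arrays: without control replicate 1, 3 member probe sets were called lower. Leaving out HDAC2 KO replicate 3 left 1 called higher, and leaving out any other array left 0. In bulk colon RNA, fewer cells carrying a transcript and less transcript per cell cannot be told apart. The mice were of mixed background, and whether their H2 alleles differed between the groups, which bears on H2-Ea above all, was not tested.

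**Figure D1:**
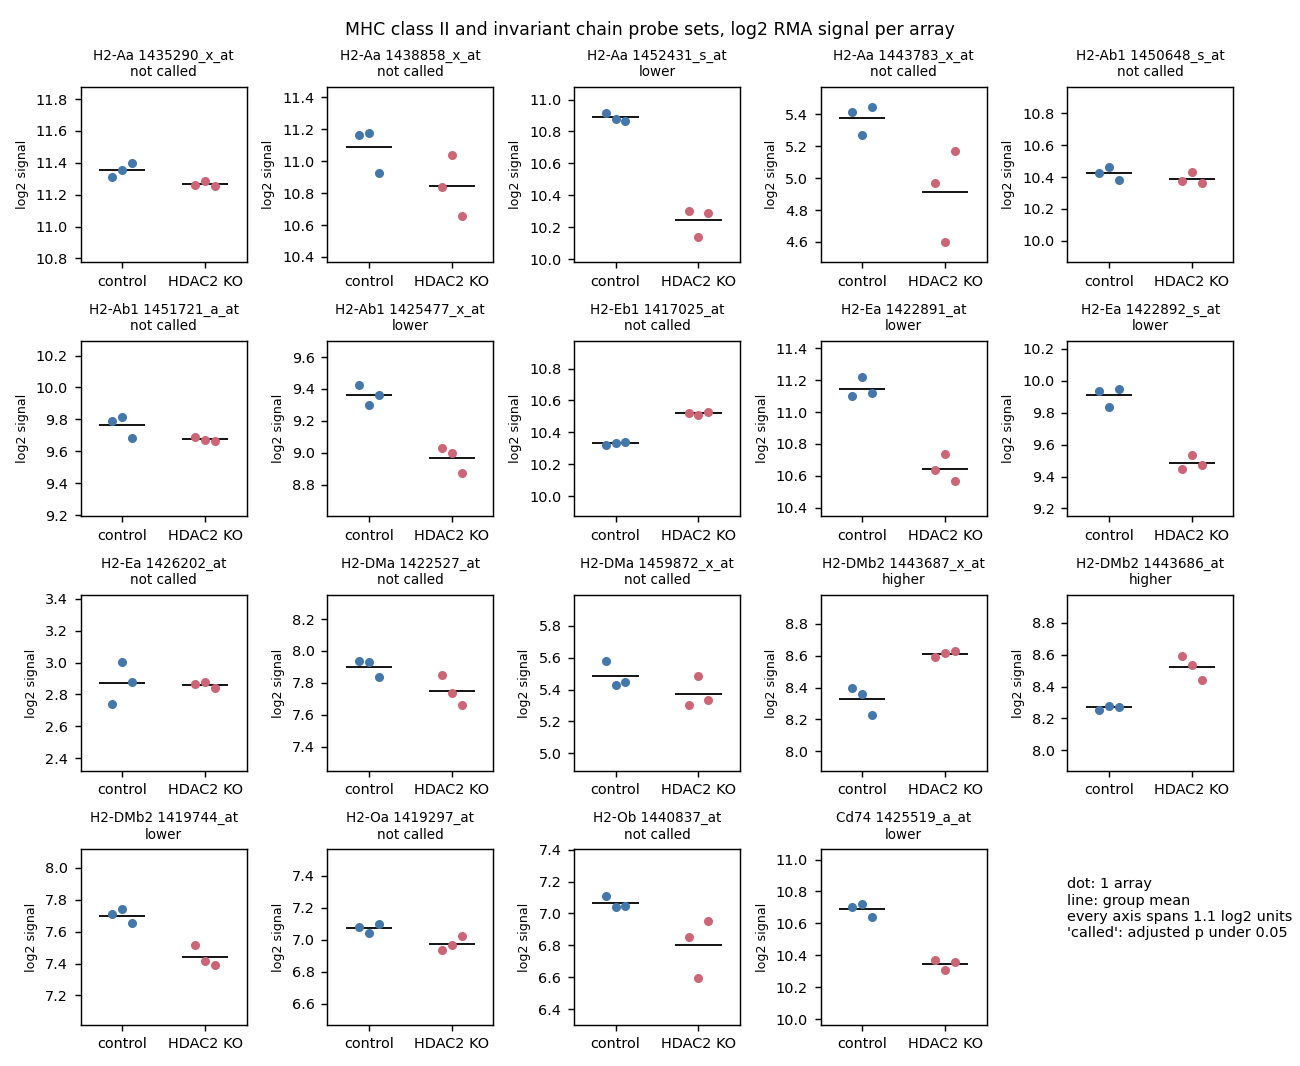
Log2 RMA signal (vertical axes, each spanning the same log2 range) of every member probe set in control and HDAC2 KO; dots are arrays and lines are group means. The H2-Aa probe set 1452431_s_at fell from 10.89 to 10.24, whereas 1435290_x_at of the same gene read 11.35 and 11.27.

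**Figure D2:**
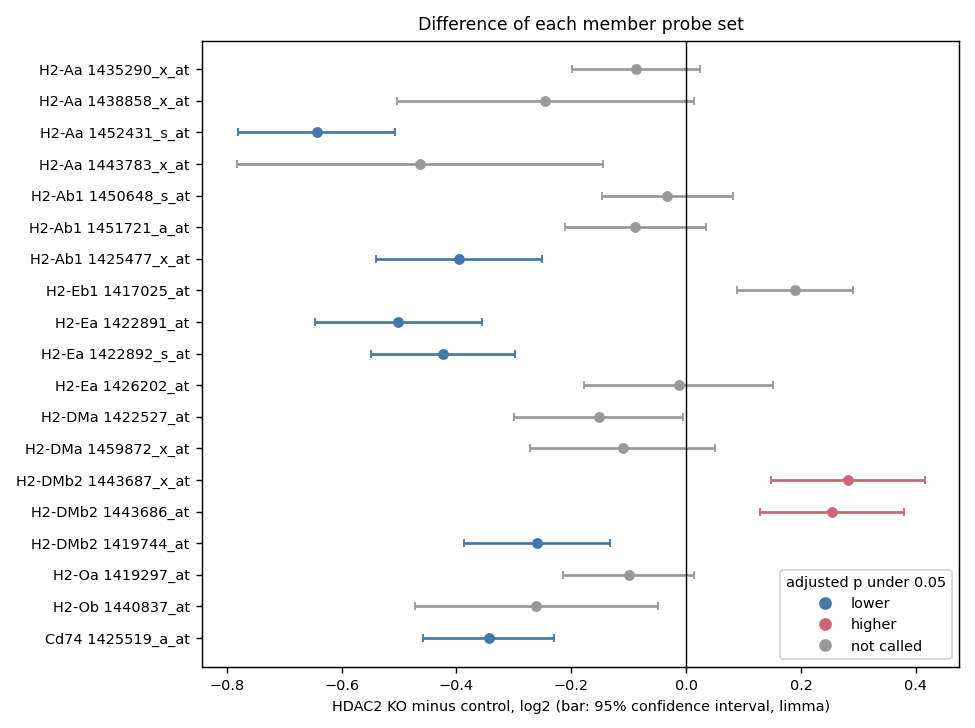
HDAC2 KO minus control difference of each member probe set on the log2 scale (horizontal axis), with the 95% confidence interval from limma as bars and colours for the call. The 6 probe sets called lower lie between -0.64 and -0.26, and the 2 called higher, both of H2-DMb2, lie at 0.25 and 0.28.

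The I-A alpha chain gene H2-Aa had 4 probe sets, and 1 of them was called. Probe set 1452431_s_at read 10.92, 10.88 and 10.87 in the control mice, against 10.30, 10.14 and 10.29 in the KO mice. All 3 HDAC2 KO arrays lay well below all 3 controls, a 1.56-fold lower signal (difference -0.64, SE 0.059, limma adjusted p = 0.00124). The brightest H2-Aa probe set, 1435290_x_at, read 11.31, 11.36 and 11.40 in control and 11.26, 11.29 and 11.25 in HDAC2 KO. Its groups did not overlap either, but the difference of -0.087 (SE 0.048, adjusted p = 0.433) was not called, and its 95% interval of -0.20 to 0.024 lies wholly above the difference of 1452431_s_at. Probe set 1438858_x_at varied within both groups, from 10.93 to 11.18 in control and from 10.66 to 11.04 in HDAC2 KO (difference -0.25, SE 0.11, adjusted p = 0.332). The dim probe set 1443783_x_at, whose mean lay at the 32.5th percentile of all probe sets, read 5.41, 5.27 and 5.45 in control and 4.97, 4.60 and 5.17 in HDAC2 KO (difference -0.46, SE 0.14, adjusted p = 0.137).

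For H2-Ab1, the I-A beta chain gene, 1 of 3 probe sets was called. Probe set 1425477_x_at read 9.43, 9.30 and 9.36 in control and 9.03, 9.00 and 8.87 in HDAC2 KO, a 1.32-fold lower signal (difference -0.40, SE 0.062, adjusted p = 0.0147). Leaving out control replicate 1 or 3 ended the call (adjusted p = 0.0732 and 0.0671). The brightest probe set of the gene, 1450648_s_at, read 10.42, 10.47 and 10.38 in control and 10.37, 10.43 and 10.37 in HDAC2 KO. These groups overlapped, with a difference of -0.033 (95% interval -0.15 to 0.081, adjusted p = 0.813). Probe set 1451721_a_at, designed from the same sequence record as 1425477_x_at, also overlapped between groups, at 9.76 ± 0.070 (SD, n = 3) and 9.67 ± 0.012 (difference -0.089, adjusted p = 0.476).

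The I-E alpha chain gene H2-Ea fell on both of its bright probe sets. Probe set 1422891_at read 11.10, 11.22 and 11.12 in control and 10.63, 10.73 and 10.57 in HDAC2 KO, a 1.42-fold lower signal (difference -0.50, SE 0.062, adjusted p = 0.00541). Probe set 1422892_s_at read 9.94, 9.84 and 9.95 in control and 9.45, 9.53 and 9.47 in HDAC2 KO, a 1.34-fold lower signal (difference -0.42, SE 0.053, adjusted p = 0.00596). Every HDAC2 KO array lay below every control array in both. The mean of 1422891_at lay at the 94.7th percentile of all probe sets, so signal for this gene, which the reference strain annotates as a pseudogene, was high in both groups. The third H2-Ea probe set, 1426202_at, lay near the bottom of the scale at 2.87 ± 0.13 (SD, n = 3) in control against 2.86 ± 0.021 in the KO group (limma adjusted p = 0.960).

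H2-Eb1 read higher in HDAC2 KO without a call. It encodes the partner chain of H2-Ea and is the member next to it in chromosomal order. Its single probe set, 1417025_at, read 10.32, 10.33 and 10.34 in control and 10.52, 10.51 and 10.53 in HDAC2 KO. The 3 HDAC2 KO arrays all lay above the 3 controls, a 1.14-fold higher signal (difference 0.19, SE 0.043), yet the adjusted p of 0.0634 did not pass. It passed with probe sets under the 40th percentile of signal left out (adjusted p = 0.0172). It also passed with 1 probe set per gene under a like filter (0.00419), with array weights (0.0379) and when the variance prior followed signal robustly (0.00166). The change of the H2-Ea to H2-Eb1 ratio, taken on each gene's brightest probe set, was -0.69 on the log2 scale (SE 0.063, exact 2-sided permutation p = 0.1, the smallest that 3 against 3 arrays can give). For the I-A pair, also on the brightest probe sets, the H2-Aa to H2-Ab1 ratio changed by -0.054 (SE 0.045, exact permutation p = 0.3). Neither of those I-A probe sets was called, while another of H2-Aa (-0.64) and another of H2-Ab1 (-0.40) were called lower. The I-A ratio thus depends on the probe sets chosen. Neither pair's ratio was among the planned tests.

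**Figure D3:**
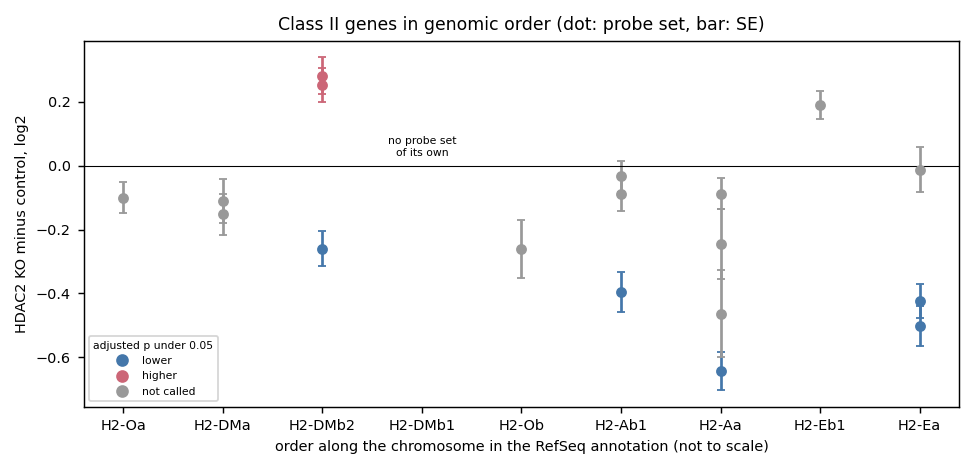
HDAC2 KO minus control difference (log2, vertical axis) of each probe set of the class II genes, placed in their order along the chromosome in the RefSeq annotation; bars are standard errors. H2-Eb1 at 0.19 stands between H2-Aa and H2-Ea, whose called probe sets lie between -0.64 and -0.42.

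The invariant chain gene Cd74, which lies on another chromosome than the class II genes, fell. Its probe set 1425519_a_at read 10.71, 10.72 and 10.64 in control and 10.37, 10.31 and 10.36 in HDAC2 KO, a 1.27-fold lower signal (difference -0.34, SE 0.049, adjusted p = 0.0102). The groups did not overlap. Leaving out control replicate 1 or 2 ended the call (adjusted p = 0.0590 and 0.0565).

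Among the peptide-loading genes, DM and DO, the probe sets of H2-DMb2 were the ones called, in opposite directions. H2-DMb2 encodes a DM beta chain and has a closely related neighbour, H2-DMb1. Its probe set 1443687_x_at read 8.40, 8.36 and 8.23 in control and 8.59, 8.62 and 8.63 in HDAC2 KO (difference 0.28, SE 0.057, adjusted p = 0.0419). Probe set 1443686_at, from the same sequence record, read 8.26, 8.28 and 8.27 in control and 8.59, 8.53 and 8.44 in HDAC2 KO (difference 0.25, SE 0.053, adjusted p = 0.0479). Both were higher on every HDAC2 KO array. The dimmer probe set 1419744_at read 7.71, 7.74 and 7.65 in control and 7.51, 7.41 and 7.39 in HDAC2 KO, and was lower on every HDAC2 KO array (difference -0.26, SE 0.055, adjusted p = 0.0474).

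These H2-DMb2 calls sat close to the threshold. Without any single array the adjusted p of 1443687_x_at lay between 0.0834 and 0.123 and that of 1419744_at between 0.0666 and 0.178. For 1443686_at it rose to values between 0.0952 and 0.181 when 1 array was left out, except for HDAC2 KO replicate 3 (0.0487). Centring each array on its median ended the call of 1419744_at (adjusted p = 0.0618). A probe set annotated to both H2-DMb2 and H2-DMb1, 1449580_s_at, fell from 8.15 ± 0.059 (SD, n = 3) to 7.84 ± 0.039 with a limma adjusted p of 0.0223, and it cannot be assigned to either gene. The other probe set annotated to both, 1418638_at, overlapped between groups (difference -0.063, SE 0.12, adjusted p = 0.860).

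H2-DMa, the DM alpha chain gene, read 7.94, 7.93 and 7.84 in control and 7.85, 7.74 and 7.66 in HDAC2 KO on probe set 1422527_at, with 1 HDAC2 KO array inside the control range (difference -0.15, SE 0.063, adjusted p = 0.289). Its dim probe set 1459872_x_at differed by -0.11 (SE 0.069, adjusted p = 0.504). The DO alpha chain gene H2-Oa read 7.08, 7.04 and 7.10 in control and 6.93, 6.97 and 7.03 in HDAC2 KO (difference -0.10, SE 0.049, adjusted p = 0.372). The DO beta chain gene H2-Ob, expressed mainly in B cells, read 7.11, 7.04 and 7.05 in control and 6.86, 6.60 and 6.95 in HDAC2 KO (difference -0.26, SE 0.090, adjusted p = 0.202). In H2-Oa and H2-Ob every HDAC2 KO array lay below every control array, but neither gene was called. A probe set annotated to H2-Ob and Gm20506 together differed by -0.27 (SE 0.097, adjusted p = 0.230).

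Class II promoters share an X box, bound by the RFX complex, and a Y box, bound by NF-Y, through which the coactivator CIITA acts. Cd74, which lies on another chromosome, was left out of the promoter search. Promoters of 7 class II genes were in the RefSeq promoter table of build GRCm38.p6, with 250 bases before and 50 after each annotated start. Stretches of 4 of them, from position -150 to -11 relative to the start, are shown. They were picked with the differences of their genes' probe sets in view, and whether a box bears on those differences was not tested. Capitals mark the Y box core TGATTGG and a part of the X box, AACNNNTGA, where a script found them.
H2-Aa (chr17:34287834-34287973, - strand): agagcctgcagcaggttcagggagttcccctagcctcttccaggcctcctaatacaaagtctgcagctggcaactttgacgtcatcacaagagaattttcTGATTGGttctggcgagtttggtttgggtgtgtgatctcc
H2-Eb1 (chr17:34305717-34305856, + strand): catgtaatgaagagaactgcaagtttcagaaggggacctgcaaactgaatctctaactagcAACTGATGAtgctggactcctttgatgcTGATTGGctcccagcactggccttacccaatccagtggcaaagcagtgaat
H2-DMb2 (chr17:34145099-34145238, + strand): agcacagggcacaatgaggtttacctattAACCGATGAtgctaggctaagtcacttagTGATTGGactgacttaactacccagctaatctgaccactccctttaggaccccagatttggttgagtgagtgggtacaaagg
H2-Ob (chr17:34238755-34238894, + strand): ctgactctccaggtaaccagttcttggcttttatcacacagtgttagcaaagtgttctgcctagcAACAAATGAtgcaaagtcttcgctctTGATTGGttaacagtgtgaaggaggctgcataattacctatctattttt

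Letters for both motifs were chosen with these sequences in view, and both strands were searched over the whole 300 bases. The motif TGATTGG was found once in each of H2-Oa, H2-DMb2, H2-DMb1, H2-Ob, H2-Aa and H2-Eb1, and in neither promoter of H2-DMa. It occurred in 7.82% of all 32851 promoters in the table. AACNNNTGA was found in H2-DMb2, H2-DMb1, H2-Ob and H2-Eb1, and in 11.9% of all promoters. A search for these letters cannot show that a promoter without them, such as that of H2-Aa, lacks an X box. Both motifs together occurred in 0.95% of all promoters. The 2 motifs did not overlap in these members. In H2-Aa and H2-Eb1 the Y box core lay 50 and 61 bases before the start. A match describes letters and not binding.

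Of the 4 genes with at least 2 probe sets at or above the 40th percentile of signal, 3 had probe sets that moved apart. H2-DMa, with 1 such probe set, was not tested. To test this, the ratio of each further probe set to the gene's brightest one was fitted with limma over all genes that met this condition. This test was added after the differences of the members had been seen. Of the 7 such ratios of members, 3 changed, against 1.78% of all 9797 ratios. The ratio of 1452431_s_at to 1435290_x_at in H2-Aa changed by -0.56 (SE 0.073, adjusted p = 0.00889). That of 1419744_at to 1443687_x_at in H2-DMb2 changed by -0.54 (SE 0.065, adjusted p = 0.00548). In H2-Ab1, the ratio of 1425477_x_at to 1450648_s_at changed by -0.36 (SE 0.069, adjusted p = 0.0472).

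The H2-DMb2 ratio was called without each array in turn, with an adjusted p between 0.0136 and 0.0376. The H2-Aa ratio was lost without control replicate 1 (adjusted p = 0.0580), and the H2-Ab1 ratio without any single array (0.0771 to 0.204). The range of differences over the probe sets of 1 gene was 0.56 for H2-Aa, 0.54 for H2-DMb2, 0.36 for H2-Ab1 and 0.078 for H2-Ea. Its median over 5894 genes was 0.092, and 98.7% of them had a smaller range than H2-Aa. H2-DMb2 was among 4 of these genes that had probe sets called in both directions. Of the 19 member probe sets, 11 carry the suffix _s_at, _x_at or _a_at, which marks probes shared by several transcripts, and 5 of the 8 called ones do. Whether sequence differences between H2 haplotypes or shared probes play a part in these ratios was not tested.

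Genes that control class II transcription were not called over all probe sets. CIITA, the master coactivator of class II genes, is encoded by Ciita, which read 6.67 ± 0.14 (SD, n = 3) in control against 6.57 ± 0.13 in the KO group (difference -0.10, SE 0.090, adjusted p = 0.669). The list held 8 genes, the others being the RFX subunit genes Rfx5, Rfxap and Rfxank, the NF-Y subunit genes Nfya, Nfyb and Nfyc, and Creb1, which encodes CREB. Their differences ran from -0.16 for Creb1 to 0.11 for Rfx5, with a median of -0.085, and 0 of 8 passed in limma, with 3 below an unadjusted p of 0.05. With dim probe sets left out or a robust variance trend 1 regulator was called lower. With 1 probe set per gene, dim ones again left out, 2 regulators were called lower. None of the 8 genes for antigen processing passed either, with a median of -0.040 and differences from -0.21 to 0.18, and 2 had an unadjusted p below 0.05. Ctss, which encodes the protease that trims the invariant chain, read 12.85 in control and 12.77 in HDAC2 KO (adjusted p = 0.443), and Ifi30, a lysosomal thiol reductase gene, 11.65 and 11.57 (adjusted p = 0.478). Of the interferon gamma pathway, 8 of 9 listed genes had a probe set and 0 were called, with 0 below an unadjusted p of 0.05. Ifng itself lay near the bottom of the scale (3.49 and 3.42), and the receptor gene Ifngr1 and the target gene Irf1 differed by 0.073 and 0.060.

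Markers of cells that carry class II moved unequally. Of 14 B cell markers 13 were measured, 8 were lower and 0 higher, with a median of -0.43. Leaving out single arrays gave 6 to 8 B cell markers called lower. Fcer2a, which encodes CD23, differed by -0.87, Cd79b by -0.70, Ms4a1 by -0.68 and Cd37 by -0.57 (adjusted p at or below 0.000919). The mean log2 signal of the B cell list lay between 7.58 and 7.61 in control mice, and between 7.15 and 7.23 in KO mice. Of 12 macrophage markers 1 was lower, Csf1r, which encodes the receptor for the macrophage growth factor CSF1, from 10.07 ± 0.034 (SD, n = 3) to 9.78 ± 0.019 with a limma adjusted p of 0.0146. The Csf1r call held when HDAC2 KO replicate 2 was left out and in none of the other 5 cases, and without control replicate 1 another macrophage marker was called higher. The median of the macrophage list was -0.056, its mean signal lying between 7.18 and 7.26 in control and between 7.16 and 7.20 in HDAC2 KO. Of 10 measured dendritic cell markers 1 was lower, Ccr7, a homing receptor gene also expressed by lymphocytes, by 0.86 on the log2 scale, and the list had a median of -0.078. Its mean signal, which includes Ccr7, lay between 6.40 and 6.42 in control and between 6.25 and 6.29 in HDAC2 KO. The other 9 measured dendritic cell markers were not called. Ptprc, the gene of the leukocyte antigen CD45, fell by 0.80.

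T cells of the mouse do not carry class II, but their markers were lower too. Of 10 measured T cell markers 6 were called lower, with a median of -0.75, and Cd3g fell by 1.84 on the log2 scale. Among 9 epithelial markers 1 was called, the surface keratin gene Krt20, higher by 0.48, and Epcam differed by 0.024. With a robust variance trend, 4 epithelial markers were called higher. Group 3 innate lymphoid cells, which carry class II in the gut, had 3 of 6 listed markers measured. Of these Il7r fell (-0.74), while Kit (-0.027) and Ncr1 (-0.035) were not called. Of 4 measured fat markers 3 fell and 1 rose, with a median of -1.43, the lowest of any list. Adipoq differed by -3.02, Fabp4 by -2.12, Lep by -0.74 and Pparg by 0.35. Among 6 smooth muscle markers 1 rose (list median 0.14), and among 6 endothelial markers 2 fell (list median -0.28). With a robust variance trend, 5 smooth muscle markers were called higher and 4 endothelial markers lower. Of the T cell calls, 5 were left without control replicate 1, control replicate 3 or HDAC2 KO replicate 1. Single arrays also decided Pparg among the fat markers, lost without any 1 array, Cnn1 of smooth muscle, lost without control replicate 1, and 1 of the 2 endothelial calls, lost without any array other than control replicate 3. The part of these cell types in the class II differences was not tested.

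**Figure D4:**
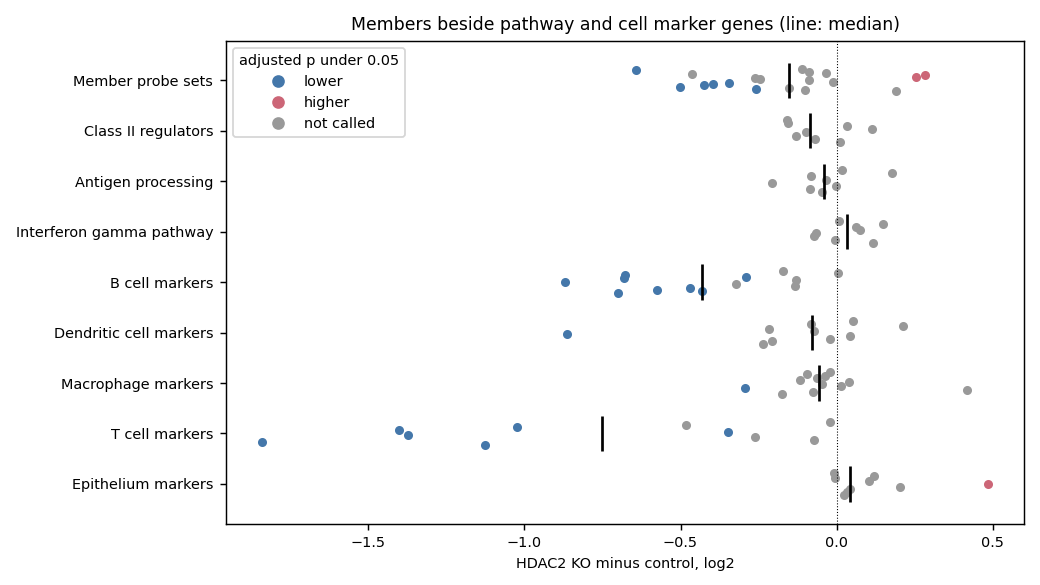
HDAC2 KO minus control difference (log2, horizontal axis) of the member probe sets and of the genes of 8 lists, each gene by its probe set of highest mean signal; vertical lines are medians. The member median of -0.15 lies between those of the B cell (-0.43) and macrophage (-0.056) lists.

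Set against single markers on the same array, each of the 9 genes, taken by its brightest probe set, had a higher ratio to the leukocyte gene Ptprc and to the B cell gene Cd79b on all HDAC2 KO arrays than on any control array. Over all 19 member probe sets, this held for 19 ratios to Ptprc and for 17 to Cd79b. An exception was the called H2-Aa probe set 1452431_s_at, whose log2 ratio to Cd79b was 2.39, 2.25 and 2.34 in control and 2.40, 2.32 and 2.44 in HDAC2 KO. The other was the dim 1443783_x_at of the same gene. Ptprc and Cd79b themselves fell by 0.80 and 0.70, so a probe set that did not change also gains in these ratios. The share of all probe sets with such ratios was not counted, so these counts are not read as a trait of class II genes. The log2 ratio of Cd74 to Ptprc was 0.19, 0.20 and 0.13 in control and 0.60, 0.69 and 0.60 in HDAC2 KO, a change of 0.46 (SE 0.039). The ratio of Cd74 to Cd79b changed by 0.36 (SE 0.028). Against the macrophage gene Csf1r, the Cd74 ratio was 0.65, 0.61 and 0.59 in control and 0.57, 0.53 and 0.60 in HDAC2 KO, with overlapping groups (change -0.050, SE 0.027, exact 2-sided permutation p = 0.2). H2-Ea was lower relative to Csf1r (change -0.21, SE 0.050) and to Epcam (-0.53, SE 0.061), and was higher relative to Ptprc (0.30, SE 0.10). H2-Eb1 was higher relative to all 4 markers, by 0.17 (SE 0.010) against Epcam and by 0.99 (SE 0.045) against Ptprc. Of 36 ratios of 9 members to 4 markers, those with groups that did not overlap had an exact permutation p of 0.1, the smallest possible here, so none could pass a threshold of 0.05.

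**Figure D5:**
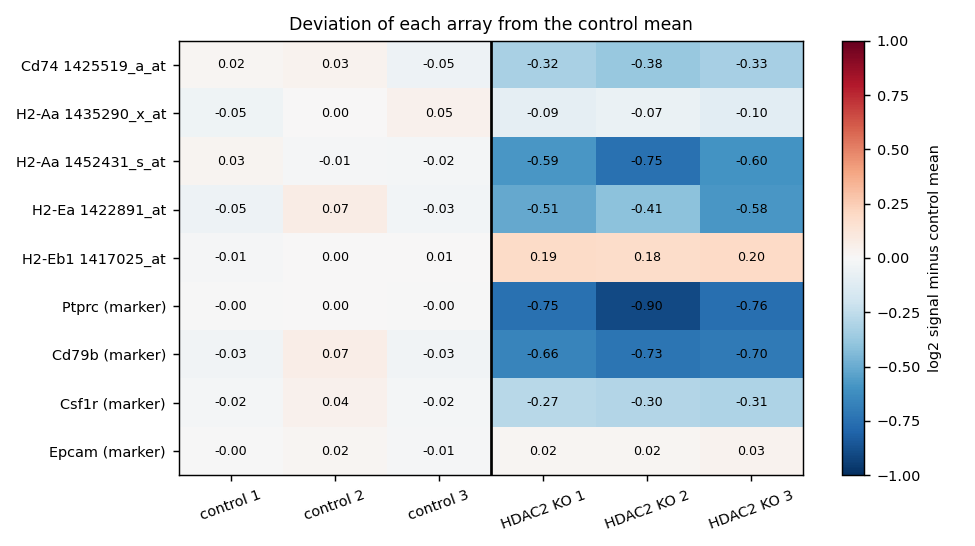
Log2 signal of each array minus the control mean (colour and printed values) for 5 member probe sets and 4 cell markers. HDAC2 KO replicate 2 was the lowest array for Ptprc, Cd79b, Cd74 and 1452431_s_at of H2-Aa, while H2-Eb1 was higher on all 3 HDAC2 KO arrays.

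Among the members, the probe sets whose signal followed that of Cd74 most closely over the 6 arrays were 1452431_s_at of H2-Aa (Pearson r = 0.991), 1419744_at of H2-DMb2 (0.968) and 1422891_at of H2-Ea (0.948), while H2-Eb1 ran opposite (r = -0.979). Of 10907 other genes, Lama3, which encodes a laminin chain, Ms4a6b, a membrane protein gene of leukocytes, Tnfrsf13b, the gene of the B cell receptor TACI, Steap4, a metalloreductase gene, and Sult1c2, a sulfotransferase gene, had the highest r, between 0.998 and 1.000. Their differences lay between -0.72 and -0.39, all called lower. With 2 groups of arrays that lie apart, r mostly restates the group difference, and 4.74% of these genes had an r above 0.95.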

How the data were processed

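Colon RNA of 3 control and 3 HDAC2 KO mice was hybridised as biotin-labelled cRNA to 1 Affymetrix array per mouse. The deposited values are on the log2 scale and were made by the authors with RMA, as the submitters' processing notes name it without a version; the scale was read from the values, which ran from 2.39 to 14.6 with array medians between 6.17 and 6.21. RMA quantile-normalizes the arrays, which hides a change in total RNA, and its background correction shrinks differences of dim probe sets. No scan date or detection call entered, and batches were not tested.

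Gene symbols came from a platform annotation table: 34945 probe sets had 1 symbol, 932 several and 9160 none listed. Of 45101 probe sets, 64 controls were left out. The other 45037 were fitted with limma 3.58.1 in R 4.3.3 (group as sole term, no signal filter), with Benjamini-Hochberg adjustment over all of them, so every adjusted p is over the whole array. SE and 95% intervals are limma's; each p concerns 3 against 3 arrays, whose number limits the precision. The fit was tested on simulated data. For listed genes other than the members, the probe set of highest mean stood for the gene. Named are all members, Hdac2, genes of the regulator, processing and interferon gamma lists, up to 4 genes of smallest p per marker list, and the 5 genes most like Cd74. Some further marker genes (Epcam, Myh11, Pparg, Cnn1) were named after their values were seen or as ratio partners. The members and lists were chosen with earlier results of these data known. Alternatives used a signal filter, 1 probe set per gene with a signal filter, further normalization or centring, another variance model and array weights. Others used a replicate block, no shared-probe probe sets, other thresholds and leaving out each array.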

Additional observations from a re-analysis of the deposited data

How the results depend on the processing

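The 8 calls of member probe sets were refitted in 102 combinations of probe set and setting: 74 kept the call, 28 lost it and 0 turned direction. The calls of 1452431_s_at of H2-Aa and of 1422891_at and 1422892_s_at of H2-Ea were kept in every one. Of 140 such refits of uncalled probe sets, 5 gave a call. The probe set 1426202_at of H2-Ea, uncalled throughout, turned sign with array weights (0.000894) and ranged from -0.079 to 0.051 without single arrays. The 6 probe sets called lower became 2 with 1 probe set per gene, where fewer members were tested, 1 without shared-probe probe sets, where most called ones were removed, and 3 at an adjusted p under 0.01. Leaving out single arrays gave 3 to 5. The 2 called higher became 0 without shared-probe probe sets, 0 at an adjusted p under 0.01 and 0 to 1 without single arrays. Over the whole array, 1712 probe sets were called, 3354 with an intensity trend and robust variances, 2635 at an adjusted p under 0.10, 671 under 0.01 and 779 to 1466 without single arrays. Counts in the marker and regulator lists shifted too. With dim probe sets left out, 1 regulator, 2 dendritic and 4 endothelial markers were called lower, and 2 epithelial and 3 smooth muscle markers higher. With 1 probe set per gene, which also filtered on signal, these counts were the same except for 2 regulators, and 3 T cell markers were lower. With an intensity trend and robust variances, 1 macrophage, 4 epithelial and 5 smooth muscle markers were higher. With array weights, 2 epithelial and 2 smooth muscle markers were higher. Of 10 measured T cell markers, 3 lay under the 40th percentile of signal, called ones among them, and the filter removed these from the test. The cause of the other shifts was not tested.

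Mice are numbered 1 to 3 in both groups. Over 27022 probe sets, each array's departure from its group mean correlated between same-numbered mice with r of 0.16, 0.21 and 0.070. HDAC2 KO replicates 1 and 2 correlated best with the control of the same number, and HDAC2 KO replicate 3 with control replicate 1 (0.18). The main fit did not treat the numbers as pairs, and 3 arrays per group cannot decide whether they are. With the replicate number as a block, 929 probe sets were called in all, 4 members lower and 0 higher, and Cd74 had an adjusted p of 0.0535.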
